A study of Mus musculus with 33 samples.

Results

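The genes described here are 10 genes of prostaglandin and leukotriene synthesis and signalling, Ptgs1, Ptgs2, Ptges, Ptgds, Hpgds, Alox5, Alox5ap, Ltc4s, Ptger2 and Ptger4, which were taken by name from the 32285 genes counted and followed across cell types, tissues and biotin sorts in every sample. The data were single-cell RNA-seq counts from mice given tumour cells that carry SAMENT, a niche labelling system in which an enzyme of the tumour cells attaches biotin to cells nearby. After overnight exposure to the labelling substrate, lungs, livers, brains, femurs and tibias were dissociated with collagenase and the cells were sorted into a biotin positive and a biotin negative fraction. In the intracardiac-injection experiment, bone, brain, liver and lung each gave 4 biotin positive and 4 biotin negative samples, and in the iia-injection experiment 6 injections gave 6 biotin positive and 6 biotin negative samples, all from bone. All groups, the biotin negative ones included, came from injected mice, so the biotin negative sort is the remainder of the same tissues and not tissue free of tumour. Strain, age, sex and the tumour line were not given in the sources used here, and neither was whether samples with the same number came from the same mouse.

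Prostaglandins and leukotrienes are short-lived lipid signals made from arachidonic acid, a fatty acid that phospholipases release from membranes. The cyclooxygenases Ptgs1 (constitutive in many cells) and Ptgs2 (induced by inflammatory stimuli) make the common precursor of the prostaglandins, from which terminal synthases such as Ptges, Ptgds and Hpgds make prostaglandin E or D. On the other branch, 5-lipoxygenase (Alox5) with its helper protein Alox5ap makes leukotriene A4, which Ltc4s joins to glutathione to give the cysteinyl leukotrienes, while Ptger2 and Ptger4 are receptors for prostaglandin E2 that raise cyclic AMP. Neutrophils and macrophages are the classical leukocyte sources of leukotrienes, and tissue macrophages differ among organs in the set of these enzymes they carry.

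Kept cells numbered 94 to 3505 per sample, with 482617 to 44834665 UMIs (unique molecular identifiers, each standing for 1 captured RNA molecule). The library with 94 kept cells was biotin positive liver sample 4. Levels are given as CPM, the UMIs of a gene scaled so that all genes of the cells named sum to the same fixed total. A UMI count does not scale with gene length in a known way, so levels of different genes are not compared. The 2 experiments used different ends of the transcript (3' for intracardiac, 5' for iia) and are not compared either. Intracardiac samples that share a replicate number shared no cell barcode in 112 pairs. Of 384 intracardiac pairs with different numbers 188 shared at least 1, at most 7 barcodes or 0.909% of the smaller sample. Cell types were named by cluster from marker genes and are "-like" classes in that sense, a suffix left out from here on. The shares of the classes that mark a tissue differed widely between samples. Microglia were 3.26% to 45.4% of biotin positive and 0.0977% to 0.665% of biotin negative brain cells, and alveolar macrophages 13.7% to 78.9% and 0.0325% to 0.834% of lung cells. In liver, macrophages, mostly of a cluster led by Cd5l, Clec4f and Vsig4, were 12.5%, 80.7%, 11.2% and 0.0% of the biotin positive and 0.237% to 2.38% of the biotin negative cells. Pooled over samples they were 34.7% of the biotin positive liver cells, and 11.5% without sample 2. Granulocyte precursors, which mark bone marrow, were 6.16% to 40.2% and 7.98% to 14.5% of the cells of intracardiac bone and 4.33% to 50.6% and 6.72% to 18.2% of those of iia bone.

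Each gene had its highest level in a small number of cell classes (plot of levels by class). These levels are a description without a test, since the classes were made from the same cells, and they cover classes with at least 20 cells in at least 3 samples. Ptgs1, the constitutive cyclooxygenase, stood at 439 ± 53.8 CPM (SD, n = 3) in microglia, 223 ± 128 CPM (SD, n = 9) in endothelial cells and 177 ± 146 CPM (SD, n = 17) in macrophages of the intracardiac samples, and the ranges over samples of the last 2 classes overlapped. In iia bone its highest class was granulocyte precursors, at 131 ± 17.5 CPM (SD, n = 12). Ptgs2, the inducible cyclooxygenase, was highest in an unnamed cluster led by Cxcl3, Rsad2 and Ccl3 at 1289 ± 507 CPM (SD, n = 3), then in another unnamed cluster (36 in the plot) at 621 ± 679 CPM (SD, n = 16) and in neutrophils at 251 ± 219 CPM (SD, n = 32). The SDs of the last 2 were nearly as large as their means or larger, and their samples overlapped.

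**Figure D1:**
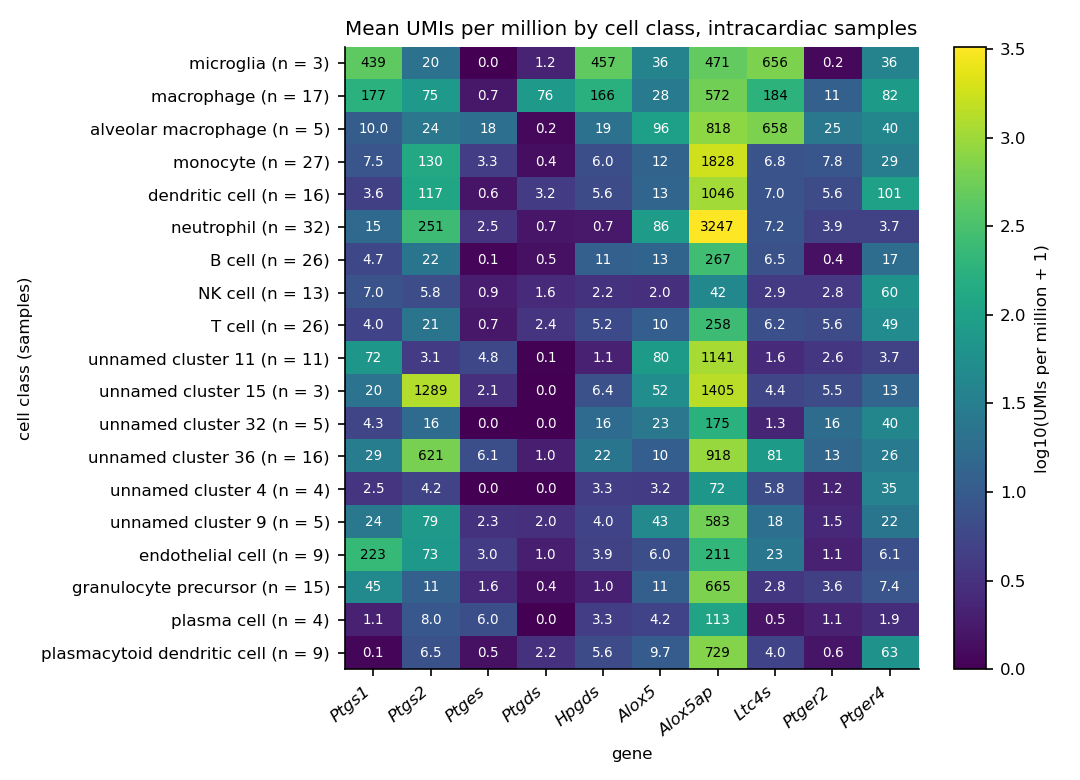
Levels of the 10 genes by cell class in the intracardiac samples. Each row is a class with its number of samples, each column a gene, the number in a cell is the mean CPM over samples, and the colour is log10 of that mean plus 1. Levels are to be read down a column, between classes and not between genes. Neutrophils carry the highest Alox5ap, and microglia and alveolar macrophages the highest Ltc4s. The Ptgds mean of macrophages rests on brain samples, and stromal cells were too few to be drawn.

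Of the prostanoid synthases, Ptges (microsomal prostaglandin E synthase) was low throughout the intracardiac samples, with alveolar macrophages at 18.3 ± 16.6 CPM (SD, n = 5). Lung alveolar and other macrophages together were at 8.17 to 16.5 CPM in the 4 biotin positive samples. They were at 31.7 CPM in biotin negative sample 2, which held 21 alveolar macrophages. In iia bone Ptges reached 97.4 ± 58 CPM (SD, n = 3) in plasma cells and 83.2 ± 19.7 CPM (SD, n = 3) in stromal cells, whose ranges overlapped. Ptgds, the lipocalin-type prostaglandin D synthase, was at 75.8 ± 157 CPM (SD, n = 17) in macrophages, where its median over samples was 3.4 CPM. That mean rests on brain, with 293.6 ± 216.7 CPM (SD, n = 4) in the biotin positive and 34.9 ± 30.5 CPM (SD, n = 3) in the biotin negative brain macrophages, while macrophages of bone, liver and lung lay at 0 to 4.73 CPM. It was at or under 3.31 CPM in every such class of iia bone. Hpgds, the haematopoietic prostaglandin D synthase, was highest in microglia at 457 ± 86.5 CPM (SD, n = 3), above all 17 macrophage samples, which averaged 166 ± 92 CPM (SD, n = 17).

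On the leukotriene branch, Alox5 was at 95.9 ± 17.7 CPM (SD, n = 5) in alveolar macrophages and 85.5 ± 25.4 CPM (SD, n = 32) in neutrophils, and these ranges overlapped. In iia bone Alox5 was highest in basophils or mast cells at 494 ± 47.3 CPM (SD, n = 4), above the neutrophils at 264 ± 34.3 CPM (SD, n = 12) in every sample. Alox5ap, which presents arachidonate to Alox5, was highest in neutrophils at 3247 ± 429 CPM (SD, n = 32), and no neutrophil sample overlapped the monocytes at 1828 ± 170.4 CPM (SD, n = 27). Ltc4s was at 658 ± 69.6 CPM (SD, n = 5) in alveolar macrophages and 656 ± 213 CPM (SD, n = 3) in microglia, with overlapping ranges, and at 184 ± 185 CPM (SD, n = 17) in macrophages, where it ran from 36.6 to 657 CPM. Neutrophils, the class with the highest Alox5ap, thus ranked high for Alox5 and outside the first 5 classes for Ltc4s. For the receptors, Ptger2 was at 24.7 ± 6.3 CPM (SD, n = 5) in alveolar macrophages and 10.9 ± 13.1 CPM (SD, n = 17) in macrophages. Ptger4 was at 101 ± 50 CPM (SD, n = 16) in dendritic cells, 81.9 ± 63.9 CPM (SD, n = 17) in macrophages, 59.8 ± 38.2 CPM (SD, n = 13) in NK cells and 49.2 ± 33.3 CPM (SD, n = 26) in T cells, all overlapping.

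Shares of cells with at least 1 UMI, after each cell was thinned to 2000 UMIs, ordered the classes in the same way for the genes with a clear class. Ltc4s was found in 68.0% of biotin positive lung alveolar macrophages (95.0% unthinned, median depth 8314 UMIs, 88 of 3742 cells too shallow to thin) against 1.48% of neutrophils and 1.46% of T cells of the same samples (median depths 3472 and 3364 UMIs), classes that serve here as the background of free RNA. In biotin positive brain Ltc4s was found in 62.4% of microglia (83.9% unthinned, median depth 5247 UMIs) and 58.0% of macrophages, against 0.548% of neutrophils (median depth 4850 UMIs). Hpgds was found in 65.2% of these microglia and 38.1% of these macrophages, and in 0.0% of the thinned neutrophils. Ptgs1 was found in 61.5% of biotin positive liver macrophages (79.2% unthinned, median depth 5464 UMIs, 189 of 1072 too shallow) against 1.54% of neutrophils (median depth 3447 UMIs).

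The 2 cyclooxygenase genes differed in their cell classes, and their promoters are shown for that reason. Ptgs1 lies at chr2:36230426-36252272 on the plus strand and Ptgs2 at chr1:150100031-150108227 on the plus strand (GENCODE vM21, mm10, the build the submitters' processing notes name). The 250 bases before each RefSeq start (GRCm38.p6, chr2:36230176-36230425 and chr1:150099781-150100030, both plus strand) are printed 5′ to 3′, with matches to a searched motif in capitals.
Ptgs1: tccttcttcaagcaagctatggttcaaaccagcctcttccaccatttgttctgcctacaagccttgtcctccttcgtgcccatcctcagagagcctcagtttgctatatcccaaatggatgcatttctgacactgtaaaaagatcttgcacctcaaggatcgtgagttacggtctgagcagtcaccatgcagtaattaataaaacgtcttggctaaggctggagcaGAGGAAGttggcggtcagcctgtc
Ptgs2: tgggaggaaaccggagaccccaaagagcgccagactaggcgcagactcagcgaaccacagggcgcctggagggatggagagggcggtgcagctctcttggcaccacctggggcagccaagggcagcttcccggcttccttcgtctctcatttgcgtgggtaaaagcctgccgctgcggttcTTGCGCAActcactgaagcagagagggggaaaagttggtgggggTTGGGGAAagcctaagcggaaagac
The motifs searched on both strands were TATAA (TATA box), CGTCA (part of the cyclic AMP response element), TTNNGNAA (C/EBP), GAGGAAG (PU.1, a myeloid factor) and GGGNN followed directly by TTNCC (NF-kB). The Ptgs2 window held TTNNGNAA at 69 bases before the start, on both strands, and at 25 bases before it, and the Ptgs1 window held GAGGAAG at 24 bases before the start. Among 32851 windows of the same length, TTNNGNAA was present in 36.9%, GAGGAAG in 10.6%, TATAA in 22.8%, CGTCA in 17.8% and the NF-kB letters in 4.11%. A match is a stretch of letters and not a shown binding site, and the data hold no measurement of binding. The table held a promoter for 9 of the 10 genes and none for Alox5ap.

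Summed over all kept cells of a sample, the biotin positive sort was set against the biotin negative sort in each tissue (plot of all kept cells by sample). In these sums more cells of a type and more RNA per cell cannot be told apart, so the same comparison within cell classes follows. In brain, 3 of the 10 genes passed the threshold (edgeR quasi-likelihood test, Benjamini-Hochberg FDR of 0.05), against 3.06% of the 11064 genes tested (2.88% higher), and all 3 were higher in the biotin positive sort. Ptgs1 was at 29.6, 15.5, 11.5 and 24.7 CPM in the biotin negative and 87.6, 123, 121 and 185 CPM in the biotin positive samples (log2 fold change 2.34, SE 0.36, edgeR FDR 0.0158). Hpgds was at 2.99, 8.3, 16.7 and 4.46 CPM against 67.6, 162, 173 and 238 CPM (log2 fold change 4.06, SE 0.59, edgeR FDR 0.0155). Ltc4s was at 3.29, 27, 16.8 and 3.45 CPM against 113, 468, 169 and 269.9 CPM (log2 fold change 4.03, SE 0.80, edgeR FDR 0.0351). For these 3 genes no biotin positive sample overlapped a biotin negative one. All 3 calls were lost without biotin negative brain sample 1 (FDR up to 0.0801), without biotin negative brain sample 4 (up to 0.128) and without biotin positive brain sample 4 (up to 0.0957). Ltc4s was also lost without biotin negative sample 3 (FDR 0.0853), biotin positive sample 2 (0.0691) and biotin positive sample 3 (0.0531).

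Ptgds in brain had the largest fitted difference of the 10 genes, with 1.72, 5.4, 1.32 and 1.29 CPM in the biotin negative and 58.5, 543, 6.02 and 35.8 CPM in the biotin positive samples (log2 fold change 5.72, SE 1.33, edgeR FDR 0.0553). The groups did not overlap, sample 2 stood far above the other biotin positive samples and sample 3 far below, and the gene passed the threshold in the fit with the replicate number as a block (4.83, SE 0.59, edgeR FDR 0.0106), in which 4 of the 10 genes and 6.89% of all genes were called. The 4 biotin positive libraries held 270, 1746, 8 and 157 Ptgds UMIs in 67, 213, 6 and 17 cells. In sample 4 a single cell held 80 of the 157 UMIs and the top 3 cells 82.8%, against 23.7% and 24.0% for the top 3 cells of samples 1 and 2. Macrophages held 90.7%, 75.9%, 75.0% and 42.0% of these UMIs, and the 1, 4, 1 and 8 cells named stromal held 0.0%, 24.0%, 12.5% and 51.6%. Without the stromal cells the levels were 58.6, 416, 5.3 and 17.5 CPM, still above every biotin negative sample except that sample 3, at 5.3 CPM, lay under the 5.4 CPM of biotin negative sample 2.

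In lung, 4 of 9 genes tested were called and all were higher in the biotin positive sort, against 18.3% of 12331 genes tested (11.5% higher). Ltc4s rose from 7.52, 28.5, 4.38 and 4.42 CPM to 345, 534, 309.5 and 191 CPM (log2 fold change 4.55, SE 0.74, edgeR FDR 0.00536), and Hpgds from 4.15, 3.48, 5.84 and 3.23 CPM to 13, 18.9, 14.1 and 13.4 CPM (log2 fold change 1.60, SE 0.20, edgeR FDR 0.00229). Ptges went from 0.605, 2.12, 1.25 and 1.78 CPM to 8, 13.8, 5.29 and 3.4 CPM (log2 fold change 2.07, SE 0.50, edgeR FDR 0.0229), a call lost without biotin negative lung sample 3 (FDR 0.0528) or biotin positive lung sample 2 (0.0534). Ptger2, a prostaglandin E2 receptor, went from 5.36, 5.61, 5.84 and 8.17 CPM to 10.7, 19.9, 14.1 and 12.9 CPM (log2 fold change 0.93, SE 0.26, edgeR FDR 0.0363), and its call was lost without biotin negative sample 1, 2 or 3 (FDR 0.0747, 0.058 and 0.0673) or biotin positive sample 2 or 3 (0.0827 and 0.0783). None of the 4 genes overlapped between the sorts. Alveolar macrophages, 13.7% to 78.9% of the cells in biotin positive and 0.0325% to 0.834% in biotin negative lung samples, moved with these genes.

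In intracardiac bone and liver no gene passed the edgeR threshold at all, so 0 of 9 members passed in each, against 0.0% of 12533 and of 11854 genes tested. At an unadjusted p under 0.05 there were 983 genes with 2 members in bone and 1571 genes with 2 members in liver, and DESeq2 called 53 genes with 0 members and 431 genes with 1 member. Ptgs1 in bone was at 11.8, 28.8, 28.7 and 32.2 CPM in the biotin negative and 51.8, 49.8, 76.7 and 52.6 CPM in the biotin positive samples, without overlap (log2 fold change 0.94, SE 0.39, edgeR FDR 0.615). In liver Ptgs1 was at 6.4, 19.2, 16.7 and 20 CPM against 57.4, 489.7, 95 and 51.8 CPM, also without overlap (log2 fold change 3.18, SE 0.76, edgeR FDR 0.15). Biotin positive liver sample 2 stood far above the other 3.

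In iia bone, 6 of 9 genes tested were called, against 50.2% of 12625 genes tested (27.0% higher and 23.2% lower), 2 higher and 4 lower in the biotin positive sort. Hpgds lay at 0.249 to 1.88 (median 0.684) CPM in the 6 biotin negative and 2.4 to 31.7 (median 7.71) CPM in the 6 biotin positive samples (log2 fold change 3.62, SE 0.73, edgeR FDR 0.00151), and Ltc4s at 0.927 to 1.89 (median 1.38) CPM against 2.51 to 20 (median 8.48) CPM (log2 fold change 2.51, SE 0.47, edgeR FDR 0.000968). Both were higher in 6 of 6 injections and did not overlap. Alox5 lay at 112 to 154 (median 139.9) CPM against 22.7 to 57 (median 44) CPM (log2 fold change -1.93, SE 0.20, edgeR FDR 1.43e-05), and Alox5ap at 718 to 918 (median 815) CPM against 371 to 577 (median 423) CPM (log2 fold change -1.09, SE 0.13, edgeR FDR 3.65e-05), both lower without overlap. Neutrophils, the class with much of both transcripts, were 52.05% of the biotin negative and 14.97% of the biotin positive cells, and macrophages 0.521% to 4.72% and 4.02% to 51.8% over the samples. The receptors fell by less, Ptger2 with log2 fold change -0.85, SE 0.22, edgeR FDR 0.00636 and Ptger4 with log2 fold change -0.55, SE 0.12, edgeR FDR 0.00286, and both overlapped between the sorts. All 6 calls held in each of the 12 fits that left out 1 sample.

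**Figure D2:**
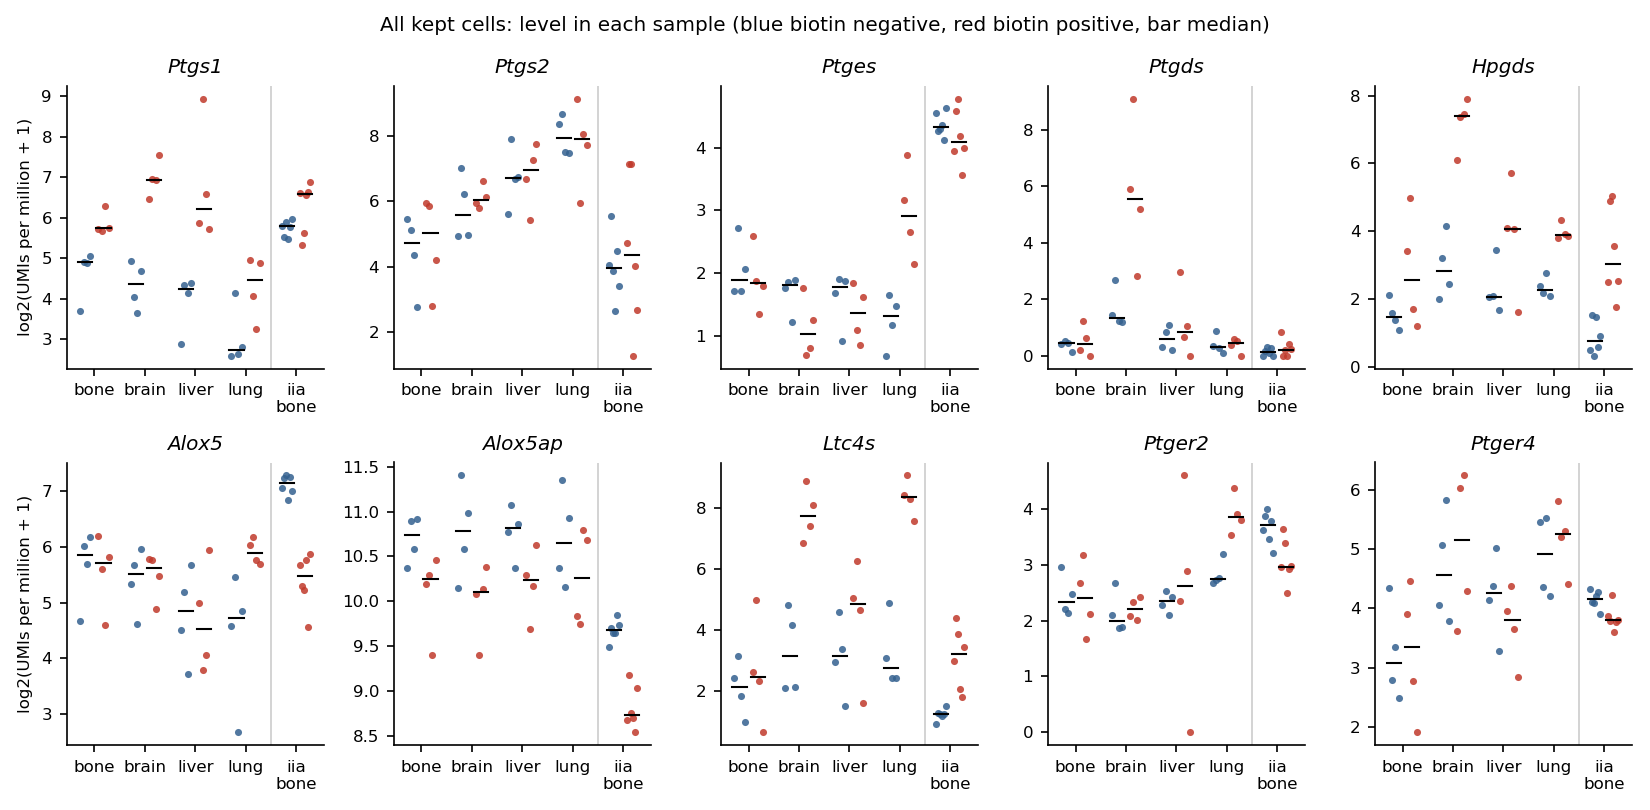
Level of each gene in every sample, over all kept cells, as log2 of CPM plus 1. Each point is a sample, bars are medians, the panels are genes, and the biotin negative (blue) and positive (red) sorts stand side by side for bone, brain, liver, lung and iia bone. Ltc4s and Hpgds in brain, lung and iia bone separate by sort, and Ptgs2 overlaps between sorts in every tissue.

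Ptgs2 over all kept cells overlapped between the sorts in every tissue, with 335, 407, 181 and 178 CPM in biotin negative and 568, 61.3, 269 and 214 CPM in biotin positive lung as an example, and it was not called in any of the 5 comparisons. Whether the biotin difference itself differed among the 4 intracardiac tissues was tested in 1 model over all 32 samples. For that test 0 of 10 genes were called, against 1.15% of 13963 genes tested, with 4 members at an unadjusted p under 0.05 and 2 called by DESeq2. With the replicate block 3 were called, Ltc4s (edgeR FDR 0.000695), Ptges (0.0111) and Ptgds (0.0312), against 4.94% of all genes. A call in 1 tissue and not in another is therefore not shown to be a difference between tissues without the block.

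Within mononuclear phagocytes (macrophages, alveolar macrophages, microglia and monocytes together) the sorts were set against each other again, in samples with at least 20 such cells (plot of phagocyte fold changes). The 2 sorts held different cells of this class, as the following shares over pooled samples show, in which biotin positive liver sample 2 gave 852 of 1368 phagocytes and biotin positive brain sample 4 gave 304 of 417 microglia. In brain, monocyte clusters 2 and 1 made 41.5% and 24.6% of the biotin negative phagocytes, while the macrophage cluster led by Ccl12, Ccn1 and Cbr2 made 64.0% and microglia 31.1% of the biotin positive ones. In lung, monocyte cluster 2 made 79.5% of the biotin negative and alveolar macrophages 90.0% of the biotin positive phagocytes. In bone the monocyte clusters 1, 2 and 20 made 44.4%, 37.4% and 16.2% of the biotin negative ones and the macrophage cluster led by Vcam1, Ccr3, Itgad and Spic 59.3% of the biotin positive ones. In liver monocyte clusters 1 and 2 (54.2% and 33.6%) faced the macrophages led by Cd5l, Clec4f and Vsig4 (70.5%). In iia bone monocyte cluster 2 was 65.3% of the biotin negative and 1 macrophage cluster 78.2% of the biotin positive phagocytes.

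Hpgds and Ltc4s were higher in the biotin positive phagocytes wherever they were called, Hpgds in bone, brain, lung and iia bone and Ltc4s in brain, liver, lung and iia bone. In brain, 6 of 8 genes tested were called, 5 higher and 1 lower, against 36.7% of 9344 genes tested (18.2% higher and 18.5% lower). Hpgds was at 9.86, 24.8, 31.3 and 29.5 CPM in biotin negative and 312, 192, 345 and 496 CPM in biotin positive brain phagocytes (log2 fold change 3.51, SE 0.39, edgeR FDR 0.000517), and Ltc4s at 5.1, 61.1, 29.1 and 27.8 CPM against 510.0, 554, 347 and 564 CPM (log2 fold change 3.73, SE 0.57, edgeR FDR 0.00129). Ptgs1 was at 9.52, 27.1, 13.2 and 22.5 CPM against 211, 145, 254 and 369 CPM (log2 fold change 3.46, SE 0.38, edgeR FDR 0.000503). These 3 genes did not overlap between the sorts. Ptgds was at 1.36, 10.6, 0.441 and 4.36 CPM against 251, 491, 9.63 and 34.7 CPM, overlapping in biotin positive sample 3 (log2 fold change 5.36, SE 1.20, edgeR FDR 0.00681). Alox5 was at 8.84, 17.5, 18.5 and 23.1 CPM against 39.9, 57.1, 33.7 and 34.2 CPM (log2 fold change 1.03, SE 0.32, edgeR FDR 0.0302), a call lost without biotin negative sample 1, 2 or 3 (FDR 0.0577, 0.0651 and 0.0617) or biotin positive sample 2 (0.0936). Alox5ap fell from 1765, 1714, 1710 and 1700 CPM to 732, 609, 653 and 418 CPM (log2 fold change -1.79, SE 0.21, edgeR FDR 0.000542). Ptgs2 passed only with the replicate block (-1.43, SE 0.34, edgeR FDR 0.0131, against log2 fold change -1.32, SE 0.73, edgeR FDR 0.184 without it), a fit that called 41.1% of all genes.

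Markers of other cells moved with the brain result. The summed level of 17 neutrophil markers, all 17 detected, ran from 24430 to 75370 CPM in the biotin negative and from 3094 to 43480 CPM in the biotin positive brain phagocytes. Stromal markers ran from 16.3 to 47.6 CPM with 5 of 12 detected (Col1a1, Col1a2 and Col3a1 at 0) against 144 to 1222 CPM with 12 of 12 detected, and choroid plexus markers from 1.7 to 7.35 CPM against 0 to 1071 CPM with 5 of 7 detected in both and Clic6 and Otx2 at 0. Their part in the levels of Alox5ap and Ptgds was not tested. Ptgds was found in 26.7% of thinned biotin positive brain macrophages and 3.56% of biotin negative ones (32.1% and 6.59% unthinned), against 0.822% and 0.109% of neutrophils.

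In lung phagocytes 7 of 9 genes tested were called, 5 higher and 2 lower, against 46.5% of 9853 genes tested (24.1% higher and 22.4% lower). Ltc4s rose from 16.5, 48.4, 3.41 and 4.07 CPM to 586, 648, 565 and 476 CPM (log2 fold change 4.70, SE 0.70, edgeR FDR 0.000463) and Alox5 from 6.59, 16.6, 2.98 and 5.01 CPM to 94.8, 84.4, 65 and 63.8 CPM (log2 fold change 3.04, SE 0.41, edgeR FDR 0.000258). Hpgds rose from 3.66, 3.56, 2.34 and 4.39 CPM to 17.6, 15.3, 21 and 17.6 CPM (log2 fold change 2.06, SE 0.24, edgeR FDR 0.000116), and Ptger2 from 6.95, 8.9, 6.17 and 8.46 CPM to 14.8, 21.5, 23.6 and 21.5 CPM (log2 fold change 1.09, SE 0.20, edgeR FDR 0.00161). Ptges, at 0.366, 5.34, 1.7 and 2.51 CPM against 8.28, 16.4, 8.52 and 5.59 CPM (log2 fold change 1.73, SE 0.50, edgeR FDR 0.0166), lost its call without biotin negative sample 3 (FDR 0.0558) or biotin positive sample 2 (0.0634). In the other direction Ptgs2 fell from 355, 362, 259 and 94 CPM to 42, 15, 56.5 and 23.9 CPM (log2 fold change -3.26, SE 0.50, edgeR FDR 0.000565) and Alox5ap from 1744, 1912, 1788 and 1799 CPM to 805, 828, 902 and 1044 CPM (log2 fold change -1.32, SE 0.14, edgeR FDR 6.82e-05). None of these 7 genes overlapped between the sorts. Ptger4, at 39.9, 24.3, 34.7 and 22.2 CPM against 71.5, 38.4, 55.4 and 33.5 CPM, passed with the replicate block (0.39, SE 0.11, edgeR FDR 0.0182, 53.4% of all genes called) and not without it (edgeR FDR 0.233). Ptgs1 did not separate in lung, with 2.56, 16.9, 7.24 and 4.07 CPM against 5.63, 12.1, 7.67 and 10.4 CPM (log2 fold change -0.13, SE 0.48, edgeR FDR 0.849).

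In bone phagocytes 2 of 8 genes tested were called, both higher, against 1.34% of 8220 genes tested (1.33% higher). Hpgds was at 2.21, 4.49, 7.79 and 3.92 CPM against 61, 165, 50.3 and 34.4 CPM, without overlap (log2 fold change 4.16, SE 0.48, edgeR FDR 0.00666), and kept its call in all 8 fits that left out 1 sample. Ptgs1 was at 8.22, 10.1, 6.59 and 3.14 CPM against 42.1, 109, 25.1 and 11.5 CPM, without overlap (log2 fold change 2.70, SE 0.46, edgeR FDR 0.022), and lost it without biotin negative sample 1, 3 or 4 (FDR 0.0694, 0.06 and 0.0584). Ltc4s, at 4.43, 11.8, 6.59 and 2.35 CPM against 16.5, 74.3, 20.9 and 0 CPM, overlapped and passed with the replicate block (1.92, SE 0.36, edgeR FDR 0.0302, 1.69% of all genes called, against an edgeR FDR of 0.113 without it).

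In liver phagocytes, with 3 biotin positive and 4 biotin negative samples because biotin positive sample 4 had under 20 such cells, 2 of 9 genes tested were called, both higher, against 5.67% of 9877 genes tested (4.83% higher). Ptgs1 was at 3.2, 25.7, 25.9 and 5.19 CPM against 112, 561 and 250.2 CPM (log2 fold change 3.99, SE 0.76, edgeR FDR 0.0338) and Ltc4s at 7.65, 21.4, 4.92 and 1.73 CPM against 57.1, 80.1 and 81.8 CPM (log2 fold change 2.60, SE 0.50, edgeR FDR 0.0338), neither overlapping. Both calls were lost without biotin negative sample 1, 3 or 4 or biotin positive sample 2 or 3, and Ptgs1 also without biotin negative sample 2, with FDR from 0.0563 to 0.123. The replicate block called 4, adding Hpgds at 1.71, 5.27, 17.7 and 8.65 CPM against 35.8, 57.3 and 65 CPM (2.93, SE 0.47, edgeR FDR 0.0141) and Alox5ap (-1.34, SE 0.31, edgeR FDR 0.0462), against 8.6% of all genes.

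In iia bone phagocytes 4 of 9 genes tested were called, 3 higher and 1 lower, against 29.2% of 9480 genes tested (16.3% higher and 12.9% lower), and each held in all 12 fits that left out 1 sample. Hpgds lay at 0 to 6.92 (median 2.12) CPM against 35.1 to 169 (median 73.1) CPM (log2 fold change 4.44, SE 0.45, edgeR FDR 4.38e-06) and Ltc4s at 0.41 to 2.57 (median 1.56) CPM against 7.34 to 157 (median 28.4) CPM (log2 fold change 4.94, SE 0.60, edgeR FDR 2.47e-05), both higher in 6 of 6 injections and without overlap. Ptgs1 lay at 9.41 to 23.9 (median 15.3) CPM against 9.76 to 88.1 (median 36.9) CPM, higher in 5 of 6 injections (log2 fold change 1.36, SE 0.31, edgeR FDR 0.00366). Alox5ap lay at 878 to 1051 (median 964) CPM against 308 to 791 (median 590.0) CPM, without overlap (log2 fold change -0.63, SE 0.18, edgeR FDR 0.0175). Ptgs2, higher in 5 of 6 injections at 6.96 to 119 (median 42.7) CPM against 14.7 to 175 (median 134) CPM, passed with the replicate block (1.12, SE 0.25, edgeR FDR 0.00467, 26.6% of all genes called) and not without it (edgeR FDR 0.0651). This direction turned without the monocyte clusters, where Ptgs2 averaged 322 CPM in 5 biotin negative and 160 CPM in 5 biotin positive samples.

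**Figure D3:**
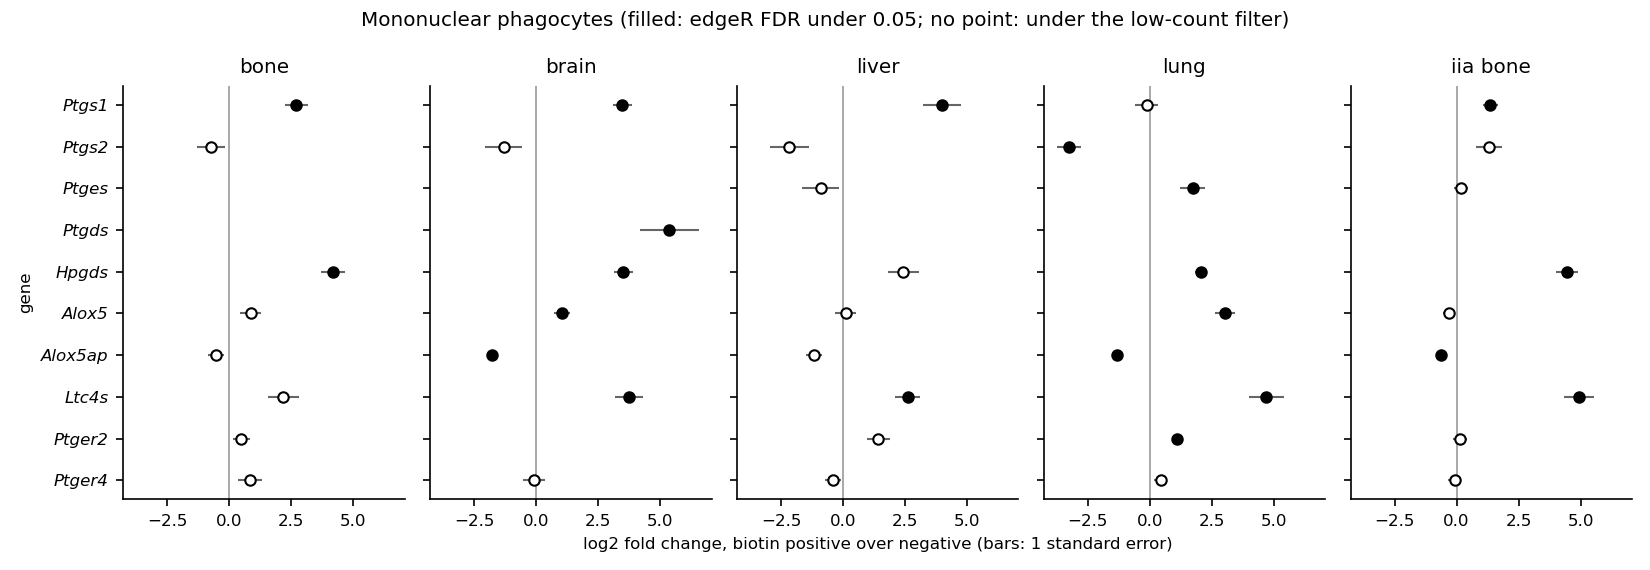
Fitted log2 fold change, biotin positive over biotin negative, of each gene in mononuclear phagocytes, by tissue, with bars of 1 standard error. Filled points passed an FDR of 0.05 and open points did not, and genes that were not tested in a tissue have no point. Hpgds and Ltc4s lie above 0 in all 5 comparisons, and Alox5ap lies below 0 in all 5.

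Without the monocyte clusters, and so with fewer cells, no member was called in brain (4 against 4 samples, 0.0163% of 6124 genes) or in liver (3 biotin positive against 2 biotin negative samples, 0.0% of 4692 genes). In the remaining liver macrophages Ptgs1 was at 216 and 287 CPM in the biotin negative and 270, 567 and 357 CPM in the biotin positive samples. There Ltc4s was at 158 and 36.6 CPM against 129, 81 and 117 CPM, and Hpgds at 41.6 and 116 CPM against 86.6, 57.9 and 79 CPM. All of these overlapped between the sorts. In bone no fit of that kind was possible. In lung 1 biotin negative sample was left, so that the fit (0.0874% of 11436 genes called) bears on none of the lung calls. The remaining brain macrophages and microglia had Ltc4s at 115, 214, 177 and 256 CPM in the biotin negative and 643, 569.8, 396 and 584 CPM in the biotin positive samples (fitted log2 difference 1.32, edgeR FDR 0.0924), and Ptgs1 at 83.5, 75, 51.1 and 137 CPM against 266, 149, 289 and 382 CPM (log2 difference 1.48, edgeR FDR 0.121). In both genes all 4 biotin positive samples still lay above all 4 biotin negative ones. Hpgds, at 251, 93.3, 201 and 276 CPM against 396, 198, 394 and 514 CPM, now overlapped (log2 difference 0.72, edgeR FDR 0.4657), as did Alox5 (0.22, edgeR FDR 0.831) and Ptgds (2.83, edgeR FDR 0.331). Alox5ap did not overlap, at 856, 970.0, 836 and 662 CPM against 412, 568, 495 and 376 CPM (-0.99, edgeR FDR 0.128). In iia bone, 4 of 6 members were called without the monocytes (5 against 5 samples, 26.4% of 5756 genes). There Hpgds remained higher (log2 difference 3.44, edgeR FDR 0.000801) and Alox5ap lower (-0.66, 0.00897), and Ptger4 was lower (-1.24, 0.0188). Ptgs2 was lower too (-0.95, 0.0172), with 243, 428, 226, 341 and 374 CPM in the biotin negative and 124, 166, 185, 261 and 62.1 CPM in the biotin positive samples. With the monocytes Ptgs2 had the other direction, higher in 5 of 6 injections and past the threshold with the replicate block only. Ptgs1 was not called (1.18, edgeR FDR 0.113). Ltc4s did not pass the low-count filter there, with 0 to 9.97 CPM in the biotin negative and 20.8 to 345 CPM in the biotin positive samples, without overlap.

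Neutrophils are the class in which Ptgs2 and Alox5ap were followed apart from macrophages (plot of neutrophil levels). Between the sorts no gene passed the edgeR threshold in any of the 5 comparisons, so 0 of 8, 4, 4, 4 and 7 members were called in bone, brain, liver, lung and iia bone, against 0.0% of 5109 to 7888 genes tested. At an unadjusted p under 0.05 there were 77, 44, 70, 35 and 722 genes with 0, 1, 1, 0 and 1 members, and DESeq2 called 0, 0, 0, 0 and 12 genes. With the replicate block Ptgs2 passed in 3 tissues. It was higher in biotin positive neutrophils in 3 of 4 pairs in brain (1.07, SE 0.17, edgeR FDR 3.87e-05, 3.56% of all genes called), 4 of 4 in liver (0.62, SE 0.13, edgeR FDR 0.044, 0.221%) and 4 of 4 in lung (0.47, SE 0.08, edgeR FDR 0.00318, 0.173%). Without passing, it was also higher in 4 of 4 pairs in bone and 5 of 6 in iia bone. The brain samples were at 81, 119, 108 and 46.7 CPM against 200, 62.6, 216 and 150 CPM. Biotin positive brain sample 2, whose pair went the other way, had 20 neutrophils. The liver samples were at 209, 385, 269 and 176 CPM in the biotin negative and 431, 388, 402 and 421 CPM in the biotin positive sort, and the lung samples at 603, 485, 314 and 259 CPM and 901, 612, 559 and 316 CPM, so that liver did not overlap, with 385.5 CPM facing 388 CPM at the nearest, and lung did. The sorts also held different neutrophil clusters. A pair of clusters led by Acod1, Cxcl2 and G0s2, in which Ptgs2 was high, made 20.4% of biotin negative and 42.8% of biotin positive neutrophils in brain (higher in 4 of 4 pairs). The means were 3.6% and 7.6% in bone (4 of 4 pairs), 47.7% and 55.9% in liver (3 of 4 pairs) and 69.9% and 74.0% in lung (4 of 4 pairs). Inside these clusters Ptgs2 was higher in the biotin positive sort in 3 of 3 pairs with a value in brain, 4 of 4 in liver and 4 of 4 in lung, without a test. In bone pair 1 it went from 905 CPM to 777 CPM and in bone pair 4 from 294.5 CPM to 673 CPM.

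Among the untagged neutrophils the tissues differed in 3 of 8 genes tested, against 19.4% of 8084 genes tested, and these 3 held in all 16 fits that left out 1 sample. Ptgs2 was at 78.3, 14.3, 16.7 and 8.86 CPM in bone and 81, 119, 108 and 46.7 CPM in brain, and at 209, 385, 269 and 176 CPM in liver and 603, 485, 314 and 259 CPM in lung (edgeR FDR over the 4 tissues 0.00149). Bone and brain overlapped through bone sample 1, as did liver and lung, while liver lay above every bone and brain sample. Alox5 ran the other way, from 121, 106, 102 and 112 CPM in bone to 76.4, 68, 56.3 and 63.7 CPM in lung (edgeR FDR 0.00938), with 126, 80.3, 66.6 and 101 CPM in brain and 94.3, 72.8, 64.5 and 81.1 CPM in liver. Ptges, the prostaglandin E synthase, fell from 4.47, 7.09, 3.65 and 3.63 CPM in bone to 0, 0.634, 0 and 0.351 CPM in lung (edgeR FDR 0.00304), near the limit of what these libraries count. Alox5ap was not called (edgeR FDR 0.874).

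**Figure D4:**
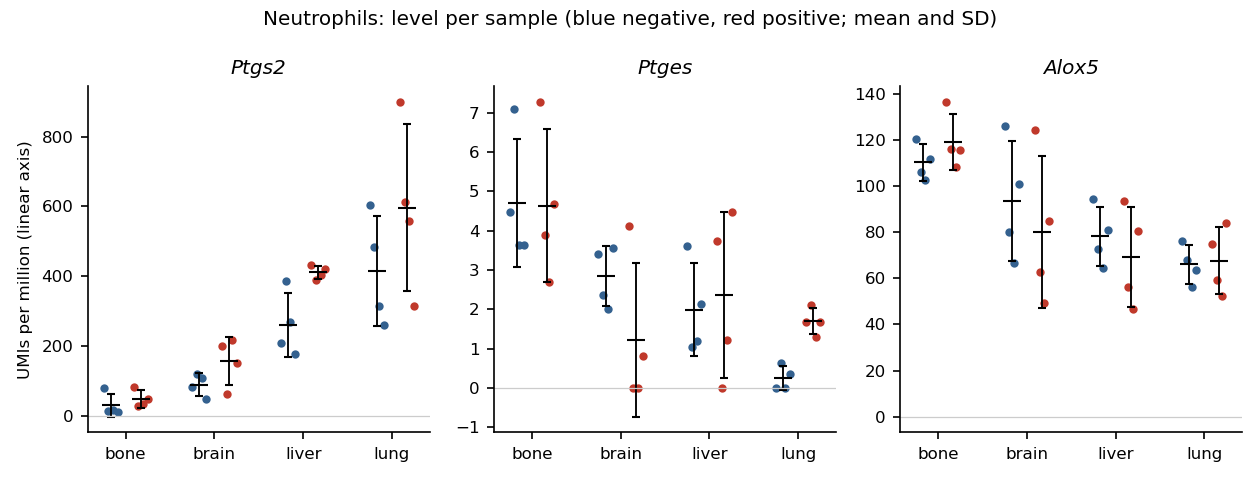
Ptgs2, Ptges and Alox5 in neutrophils of each intracardiac sample, in CPM on a linear axis, by tissue and sort (blue negative, red positive). Each point is a sample, and the bars give the mean and SD over 4 samples. The mean of Ptgs2 is lowest in bone and highest in lung, and that of Alox5 is highest in bone, while single samples overlap between tissues.

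The share of untagged neutrophils with a Ptgs2 UMI, in cells thinned to 2000 UMIs, was lowest in bone at 3.18%, then 10.2% for brain, 21.4% for liver and 32.5% for lung (6.3%, 17.4%, 26.4% and 41.0% unthinned, at median depths of 7042, 5977, 3729 and 3500 UMIs). B cells of the same samples, which should hold little Ptgs2, gave 1.55%, 1.24%, 2.05% and 1.93% at median depths of 2163, 2144, 2066 and 2519 UMIs.

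Ptgs2 in neutrophils was higher inside than outside 2 of the neutrophil clusters, which are led by Acod1, Cxcl2 and G0s2 among other genes and were singled out after their values were seen, so the values are a description without a test (plot of neutrophil clusters). In bone they held 3.6% ± 2.52 (SD, n = 4) of untagged neutrophils, and the share was 20.4% ± 12.03 for brain, 47.7% ± 8.96 for liver and 69.9% ± 10.4 for lung. Inside them the mean Ptgs2 level over samples was 484 ± 296.9 CPM (SD, n = 4) for bone, 521 ± 350.6 CPM for brain, 588 ± 106 CPM for liver and 573 ± 161.6 CPM for lung, and in the other neutrophils 18.4, 48.1, 79.0 and 116 CPM. For Alox5 the means were lower inside these clusters, at 79.9, 50.9, 59.3 and 61.4 CPM, than in the other untagged neutrophils, at 111, 99.2, 88.7 and 74.8 CPM. In the biotin positive sort this was not so in brain (86.5 inside and 78.2 CPM outside, over 3 samples). Nor was it so in biotin positive bone (124.7 CPM inside over 2 samples and 119.0 CPM outside over 4). For Ptges in untagged neutrophils the means were 0, 0.3, 1.03 and 0.179 CPM inside and 4.8, 3.21, 2.15 and 0.283 CPM outside. In biotin positive lung Ptges went the other way, at 2.03 CPM inside and 1.26 CPM outside.

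**Figure D5:**
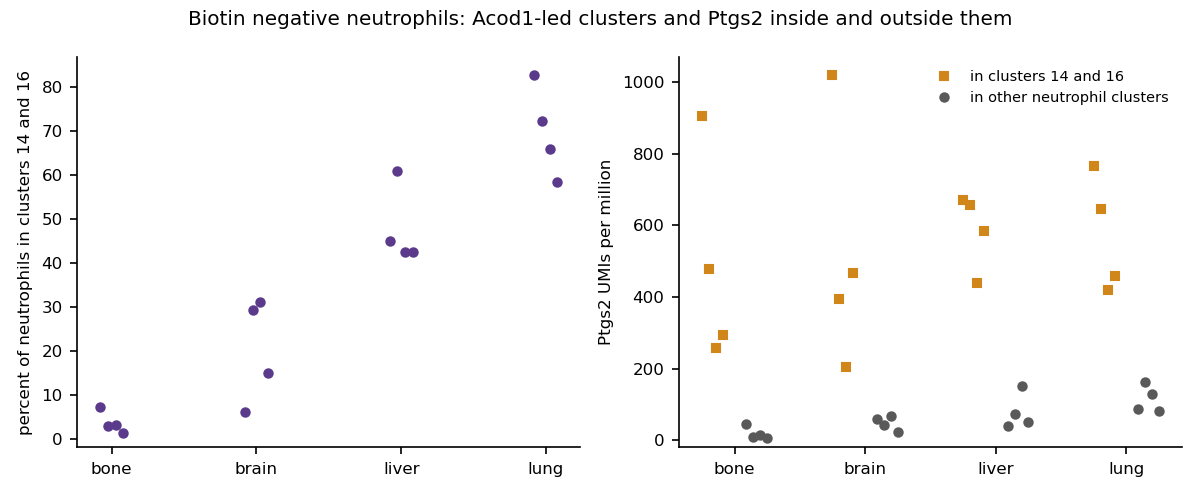
Share of biotin negative neutrophils in the 2 Acod1-led clusters, and Ptgs2 level inside and outside those clusters, by tissue. Each point is a sample, the left panel gives the share in percent and the right panel the level in CPM, with squares inside and circles outside the clusters. The mean share is lowest in bone and highest in lung, and the levels inside the clusters spread from 204 to 1020 CPM, overlapping between all tissues.

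Over all untagged cells, 2 of 10 genes differed among the 4 tissues, Ptgs2 (edgeR FDR 0.0157) and Ptgds (edgeR FDR 0.026), against 11.8% of 13096 genes tested. Ptgs2 was at 43.1, 33.6, 19.3 and 5.78 CPM in bone, 29.4, 129.7, 73.8 and 30.1 CPM in brain and 47.7, 242, 102 and 106 CPM in liver, all under the lung levels given above except liver sample 2. Its call was lost without biotin negative bone sample 3 (FDR 0.0502), and the Ptgds call without that sample (0.0592), bone sample 4 (0.056), brain sample 2 (0.0956) or lung sample 1 (0.0533). With the replicate block 7 genes were called, against 29.8% of all genes. In untagged phagocytes 0 of 9 genes were called, against 0.554% of 9753 genes tested, with Hpgds nearest the threshold (edgeR FDR 0.051). With the block Hpgds (0.00101) and Ptgs2 (0.0223) passed, against 5.36% of all genes.

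T cells and B cells gave little. No member was called between the sorts in T cells of brain or lung or in B cells of bone, liver or lung, against 0.0% to 0.0164% of 3454 to 6273 genes tested. Ptger4 in T cells had a log2 difference of 1.06 (SE 0.38) in brain and -0.08 (SE 0.34) in lung. Among untagged tissues 0 of 3 members were called in T cells and 0 of 3 in B cells, against 0.121% and 0.241% of all genes. With the block Ptger4 passed in T cells (edgeR FDR 0.0494, 2.42% of all genes) and Alox5ap in B cells (0.00139, 2.88%).

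The rest of the pathway was read from a list of 45 other genes. Within phagocytes 3 of 22 genes tested were called in bone, 15 of 22 in brain, 4 of 26 in liver, 15 of 24 in lung and 14 of 23 in iia bone, against 1.34%, 36.7%, 5.67%, 46.5% and 29.2% of all genes. All calls of bone (3) and liver (4) were higher, brain and lung each had 6 higher and 9 lower, and iia bone had 10 higher and 4 lower. Median log2 differences of the tested list were 0.02, 0.12, -0.16, -0.06 and 0.39, beside 0.01, 0.03, 0.04, 0.04 and 0.00 over all genes. Tbxas1, the thromboxane synthase, was higher in the biotin positive phagocytes in all 5 comparisons, by a log2 difference of 1.88 for bone, 1.83 for brain, 1.29 for liver, 1.89 for lung and 1.46 in iia bone, and so was the lysosomal phospholipase Pla2g15, by 2.04, 2.16, 1.79, 2.79 and 1.83. The leukotriene B4 receptor Ltb4r1 was lower in brain (-2.96), lung (-2.71) and iia bone (-0.79), as was Cyp4f18, which oxidises leukotriene B4 (-2.46, -1.44 and -0.87). The exporter Abcc4 was lower there too (-2.57, -1.14 and -0.73). Hpgd, which breaks prostaglandins down, rose in brain (2.19) and liver (2.64) and fell in lung (-2.49). Prxl2b, a prostaglandin F synthase, rose in bone (1.72), brain (1.14) and iia bone (2.25) and fell in lung (-1.97), its bone call being lost in 5 of 8 fits that left out 1 sample (FDR up to 0.107). The prostaglandin E synthase Ptges2 fell in brain (-0.82) and iia bone (-1.16) and rose in lung (0.66), calls lost in 2 of 8, 6 of 12 and 6 of 8 such fits (FDR up to 0.0567, 0.145 and 0.122). Carbonyl reductase Cbr1 rose in brain (1.66), lung (1.30) and iia bone (2.30). The calls of Tbxas1 and Pla2g15 held in each fit that left out 1 sample in brain, lung and iia bone. In bone they were lost without any of the 4 biotin negative samples (FDR up to 0.0837 for Tbxas1 and 0.104 for Pla2g15). In liver they, and that of Hpgd, were lost without any 1 of 6 samples and held only without biotin positive sample 1 (FDR up to 0.123 for Tbxas1, 0.162 for Pla2g15 and 0.0986 for Hpgd). Cyp4f18 in iia bone was lost without biotin positive sample 2 or 3 (FDR up to 0.0646). Like the members, these genes were compared between sorts that held different phagocyte clusters. Without the monocyte clusters none of the genes named here was called in brain or liver, and the lung fit, with 1 biotin negative sample, bears on none of them.

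Over all kept cells 0 of 30 listed genes were called in bone, 4 of 26 in brain, 0 of 31 in liver, 7 of 31 in lung and 18 of 30 (10 higher and 8 lower) in iia bone. The shares of all genes were 3.06% in brain, 18.3% in lung and 50.2% in iia bone, so that the lung and iia bone counts lay near those of all genes. In brain these were Tbxas1 (2.06), Pla2g15 (2.11), Hpgd (2.61) and Prxl2b (1.37), all higher, and all 4 were lost without biotin negative sample 1, 3 or 4 or biotin positive sample 4 (FDR up to 0.163). In lung Alox15 (3.77), a 12/15-lipoxygenase, Pla2g15 (2.68), Tbxas1 (2.34), Pla2g4a (1.10), which releases arachidonate, and Akr1b3 (1.07) were higher, and the thromboxane receptor Tbxa2r (-2.48) and the cysteinyl leukotriene receptor Cysltr2 (-2.37) lower. Alox15 was lost without any of 6 samples, biotin negative 1, 2 and 3 and biotin positive 1, 3 and 4 (FDR up to 0.112), and Cysltr2 without biotin negative 1 or 3 or biotin positive 1 or 2 (up to 0.0577). In neutrophils no listed gene was called between the sorts. Among untagged neutrophils Ptgr1, Ptgir, Lta4h (leukotriene A4 hydrolase) and Ggt5 differed among the tissues, 4 of 20 tested, a share near the 19.4% of all genes, and Ggt5 was lost without any bone sample, liver sample 2 or lung sample 1, 2 or 4 (FDR up to 0.0904).

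Genes whose levels ran most like each member were ranked by Pearson's r across 57 profiles of cell class by tissue, with sorts and samples summed, which share libraries and depth, and r is given as a description. For Ptgs2 these were Il1b (0.84), Ier3 (0.804) and Fem1c (0.793), and for Alox5ap Nfam1 (0.909), Spi1 (0.902) and Pirb (0.901). Ltc4s ran with Gm10134 (0.874), Mertk (0.868) and Lrp12 (0.865), Hpgds with C1qa (0.778) and C1qb (0.777), and Ptgs1 with Tcn2 (0.837), Anxa3 (0.792) and Mafg (0.786). Ptger4 ran with Epsti1 (0.808), Trim36 (0.802) and Rgs1 (0.785) and Ptger2 with Lcp2 (0.764), Rab8b (0.735) and Metrnl (0.716). The highest values were lower for Alox5 (Mctp1, 0.715), Ptgds (Ttr, 0.704) and Ptges (Txn1, 0.659).

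Some of the genes share their position with other genes, and the sources used here do not give the strand setting of the counting. Ptger4 (chr15:5206661-5244187, minus strand) overlaps Ttc33 on the opposite strand, Ltc4s (chr11:50236461-50238616, minus strand) overlaps Gm26542, and Ptgs1, Hpgds, Alox5ap and Ptger2 overlap predicted or non-coding genes on the opposite strand, so reads of such pairs could not be told apart if strand was not used. Ptges overlaps Gm13400 on the same strand, where strand does not tell them apart. Ptgs2, Ptgds (chr2:25466709-25470046, minus strand) and Alox5 (chr6:116410077-116461178, minus strand) overlap no annotated gene.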

How the data were processed

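Gene counts per cell, deposited as matrices of UMI counts, were used for 32 intracardiac samples and for 1 pooled iia-injection bone matrix. Per the file headers they were written by Cell Ranger; mm10, Cell Ranger and Seurat stand in the submitters' processing notes without versions, and the aligner's strand setting was not given in the sources used here. The pooled matrix also held counts of 12 hashtag antibodies, and cells were given to an injection and sort where the strongest hashtag reached 10 counts and was 3 or more times stronger than the next; hashtag names in the deposited list and matrix were matched by their number. Of 57065 intracardiac barcodes 55366 were kept, and of 26666 pooled barcodes 22685 were assigned and 22362 kept (cells under 500 UMIs or 200 genes, or with over 15% mitochondrial UMIs, were dropped). Multiplets between samples were removed by the multiplexing tags only, doublets within a sample were not called, and dropping the 5% of cells with most UMIs was an alternative.

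Cells were clustered with scanpy 1.11.5 on 2000 variable genes that exclude the 10 members and the 45 pathway genes (30 principal components, 15 neighbours, Leiden resolution 1) and named from 28 lists of 303 marker genes. In the intracardiac samples 32 of 41 clusters and in iia bone 21 of 25 were named, leaving 9.47% and 10.1% of cells unnamed. UMIs were summed per sample, or per sample and class with at least 20 cells, and tested with edgeR 4.0.16 (quasi-likelihood F test, TMM, Benjamini-Hochberg FDR over all genes passing its low-count filter, threshold 0.05); SE is the log2 fold change over the square root of F. DESeq2 1.42.0 was an alternative. A member was tested only where it passed the filter on low counts. The test was tried on simulated counts first. Genes are named as the 10 members, as pathway genes past the threshold, as up to 3 genes most like a member, or as leading genes and markers of clusters; members, lists and tests were chosen with earlier results of these data known.

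The labels do not say that samples came from separate mice, so p-values measure the spread between these samples. In the intracardiac experiment replicate numbers mark multiplexed pools: same-numbered samples share no barcode. In iia bone all samples came from the same pooled matrix, and the number marks the injection. Deviations from group means of same-numbered sorts of 1 tissue correlated at -0.248 to 0.8 (median 0.482, over 0.1 in 15 of 16 pairs, the exception being lung 3) and in iia bone at 0.133 to 0.639 (6 of 6 pairs); other-numbered pairs had medians of -0.214 and -0.0764. The main fits leave the number out, so their p-values do not take this pairing into account. In the fits with the number as a block it was taken to pair the samples, as a shared pool or, in iia bone, a shared injection. Those fits are given beside a result they change. The leading genes of 2 clusters are not reported here.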

Additional observations from a re-analysis of the deposited data

Results flagged for a closer look

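In 17 of 244 groups of 4 to 6 samples tested, 1 sample lay far from the rest by Dixon's criterion, where chance gives about 1 in 20. Over all kept cells these were, with the range of the other samples, Ptgs1 in biotin positive bone 3 (76.7 CPM, others 49.8 to 52.6), in biotin positive liver 2 (489.7, others 51.8 to 95.0) and in biotin negative lung 2 (16.5, others 5.01 to 6.0). For Ptgds they were biotin negative brain 2 (5.4 CPM, others 1.29 to 1.72), biotin positive brain 2 (543, others 6.02 to 58.5) and biotin positive liver 1 (6.71, others 0 to 1.08). Ltc4s stood out in biotin positive bone 2 (30.5 CPM, others 0.584 to 5.25) and biotin negative lung 2 (28.5, others 4.38 to 7.52), and Hpgds in biotin negative liver 3 (9.75, others 2.19 to 3.23). For the receptors these were Ptger2 in biotin negative lung 4 (8.17 CPM, others 5.36 to 5.84) and Ptger4 in biotin positive iia 3 (17.8, others 11.2 to 13.6).

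In phagocytes Ltc4s stood out in biotin positive iia 6 (157 CPM, others 7.34 to 48.1) and Ptger2 in biotin negative iia 3 (21.4, others 10.1 to 13.5). In neutrophils the samples were Ptgs1 in biotin negative lung 2 (16.6 CPM, others 5.36 to 6.31), Ptgs2 in biotin negative bone 1 (78.3, others 8.86 to 16.7), Ltc4s in biotin positive liver 2 (31.8, others 1.23 to 4.48) and Ptger2 in biotin negative bone 1 (8.93, others 3.45 to 4.08).

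Some genes moved one way in every pair of one tissue and the other way in every pair of another, and these differences were not tested. Over all kept cells Alox5 had a log2 difference of 0.91 in lung and -1.93 in iia bone, and Ptger2 0.93 in lung and -0.85 in iia bone, 2 experiments with different chemistry. In neutrophils Alox5 was higher in bone (0.0516) and iia bone (0.0989) and lower in brain (-0.259) and liver (-0.274).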

How the results depend on the processing

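Counts below are genes called, with members where they moved. A level of 0 in a sample is a limit of its depth and not an absence. With the replicate block, all kept cells gave 12 genes in bone and 762 in brain, and liver phagocytes gave 849 genes and 4 members. Neutrophils gave 182, 12, 11 and 152 genes in brain, liver, lung and iia bone, with 1 member in each of the first 3. There were 6 in T cells of brain, 1 in B cells of bone and 16 in B cells of liver. Among untagged tissues the block gave 3906 genes and 7 members in all cells, 523 and 2 in phagocytes, 3032 in neutrophils, 160 and 1 in T cells and 191 and 1 in B cells, and for the tissue by biotin terms 690 and 3. It changed no other count of calls by over 1.5 times.

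DESeq2 gave 53, 1225 and 431 genes in all cells of bone, brain and liver, with 5 members in brain and 1 in liver. It gave 200 in bone phagocytes, 1105 and 5 members in liver phagocytes, 12 in iia neutrophils, 1 in brain T cells and 7 in liver B cells. Among tissues it gave 3002 and 4 in all cells, 288 and 1 in phagocytes, 47 in T cells, 48 and 1 in B cells, and 536 and 2 for tissue by biotin. Without the low-count filter there were 517 genes in all brain cells, 730 in bone phagocytes, 1244 and 5 members in liver phagocytes, and 2, 2 and 153 in neutrophils of liver, lung and iia bone. There were 46 and 48 in T cells of brain and lung with 1 member in brain, 78, 74 and 36 in B cells of bone, liver and lung with 1 member in bone. Among tissues there were 251 and 2 in phagocytes, 291 and 2 in T cells and 224 and 3 in B cells. A fit of all tissues at once gave 1, 1053 and 463 genes in all cells of bone, brain and liver, 1 member in liver and 2 in lung. At least 50 cells gave 196 genes in bone phagocytes, and dropping the cells with most UMIs 3 in liver B cells.

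Without the monocyte clusters phagocytes gave 1, 0, 10 and 1522 genes in brain, liver, lung and iia bone, and 0 members in the first 3. The fitted value had the other sign for Ptges (-1.37), Hpgds (-0.59), Ptger2 (-0.28), Ptgr1 (0.0802), Dpep2 (0.43), Abcc4 (0.27), Pla2g6 (-0.0361) and Anxa1 (0.19) in lung, none of them called there, and for Ptgs2 (-0.95) in iia bone. These fits held fewer cells. Lung had 1 biotin negative sample, so its values test no direction.

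Leaving out 1 sample at a time, members called ranged from 0 to 4 in all brain cells (0 without biotin negative 1 or 4 or biotin positive 4), 2 to 4 in all lung cells (2 without biotin negative 3 or biotin positive 2). They ranged from 1 to 2 in bone phagocytes and 0 to 5 in liver phagocytes (5 without biotin positive 1). They ranged from 0 to 4 among tissues in all cells (0 without bone 3), 0 to 1 in phagocytes and B cells, and 0 to 2 for tissue by biotin. Genes called ranged from 3 to 758 in all brain cells (3 without biotin negative 1), 0 to 61 in liver (61 without biotin positive 2) and 1280 to 2381 in lung. They ranged from 34 to 289 in bone and 0 to 2722 in liver phagocytes (2722 without biotin positive 1), 0 to 15 in iia neutrophils, and 0 to 49, 0 to 7 and 0 to 1 in B cells of bone, liver and lung. Among tissues they ranged from 596 to 2457 in all cells, 29 to 121 in phagocytes, 1017 to 2230 in neutrophils, 0 to 16 in T cells and 5 to 23 in B cells, and from 64 to 292 for tissue by biotin. Of the values for single genes under any alternative, 3748 kept their side of the threshold, 261 fell below it, 81 rose above it and 9 turned sign with at least 1 of the 2 values past the threshold. Sign changes between 2 values that both missed the threshold, which also occurred when 1 sample was left out, are counted among those that kept their side.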
